A study of Macaca mulatta with 13 samples.

Results

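The genes described here carry the signal of interleukin-6 and its relatives from the cell surface to the nucleus. They are the ligand gene IL6, the receptor genes IL6R, IL6ST, LIFR and OSMR, the kinase genes JAK1 and JAK2, the transcription factor gene STAT3 and the feedback inhibitor gene SOCS3. Of these 9 genes, 8 had a probe set with 1 gene symbol in the platform annotation, with 14 probe sets in all, out of 52766 probe sets on the array and 14132 genes so named. JAK1 is not analysed here, since 0 probe sets carried its name. Every probe set of a gene was kept, whatever its brightness.

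The tissue was vastus lateralis, a thigh muscle, from 13 male rhesus monkeys (Macaca mulatta). There were 8 animals on a calorie restricted (CR) diet, 27 to 32 years old, and 5 animals on a control diet, 27 to 30 years old, and the restriction is given as 18.5 years long. RNA of each animal was read on its own one-colour Affymetrix array, and precision is limited by the number of arrays. Ages are given for each group and not for each animal, and the samples are whole muscle, which also holds vessels, fat and immune cells.

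Interleukin-6 binds the receptor subunit encoded by IL6R, and the complex then recruits gp130, the product of IL6ST, which passes the signal on. The products of LIFR and OSMR pair with gp130 for the related cytokines LIF and oncostatin M. Bound receptors activate JAK kinases, which phosphorylate STAT3. STAT3 enters the nucleus and raises transcription of, among others, SOCS3, whose product blocks the receptor complex. Contracting muscle fibres release interleukin-6, and in mice STAT3 signalling also acts in satellite cells, the stem cells of muscle. Part of this signalling is set by phosphorylation, which transcript arrays do not measure.

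The genes were selected on their place in the pathway and with the signal difference between CR and control animals already known, that of IL6R among them, so the diet differences of these genes are given as descriptions. Of the 14 probe sets 0 passed limma's test between the diets with Benjamini-Hochberg adjustment over all 52766 probe sets. Across all probe sets 0% were called higher in CR and 0% lower. The lowest adjusted p of any probe set in limma was 0.498. At an unadjusted p under 0.05 limma gave 1 of the 14, higher in CR, where 3.38% of all probe sets were called (2.04% higher and 1.34% lower). The exact rank-sum test gave 1 of the 14 at the same level, where 3.21% of all probe sets were called, and 0 probe sets after adjustment. The groups overlapped in all 14 probe sets, while 0.0606% of all probe sets had every CR animal above every control animal and 0.0322% the reverse.

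Each array had a trimmed mean signal of 500, and the correlation between any pair of them was 0.834 to 0.940 over the brighter probe sets. Of the 10 muscle fibre markers measured, 9 lay above the 99th percentile of mean signal over all probe sets, so the defining markers of the labelled tissue were present. Control replicate 4 stood apart from the rest: it had the lowest summed signal of the muscle fibre markers and the highest of the endothelial and of the matrix markers among the 13 animals. It also had the highest signal of 13 in 4 of the 14 probe sets described here and the lowest in 2. CR replicate 8 had the lowest signal in 5 and the highest in 2. Results that rest on such animals are given with and without them.

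IL6R, the gene of the ligand-binding subunit, had 2 probe sets, and they gave different pictures. In the dimmer one (MmuSTS.682.1.S1_at) the signal ran from 329 to 798 with a median of 493 in the 8 CR animals, against 239, 280, 288, 330 and 399 in the 5 control animals. The groups overlapped at their edges, and 6 of 8 CR animals lay above the highest control, while all 8 exceeded the controls' mean. The mean log2 signal was 9.02 ± 0.45 (SD, n = 8) in CR and 8.24 ± 0.28 (SD, n = 5) in controls, a difference of 0.78 ± 0.23 (SE, log2) or 1.71-fold. This difference was known when the genes were selected. Without any single animal it lay between 0.69 and 0.88.

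In the brighter IL6R probe set (MmugDNA.42225.1.S1_at) the signal ran from 744 to 1341 with a median of 1078 in CR animals, against 788, 805, 911, 1020 and 1577 in control animals. The lowest value of all belonged to CR replicate 1 and the highest to control replicate 3, and the groups overlapped along their whole range. The difference was 0.11 ± 0.19 (SE, log2). Without control replicate 3 it was 0.28, and without control replicate 5 it was 0.032. Within an animal, the log2 signal of the dimmer probe set minus that of the brighter one was -1.04 ± 0.35 (SD, n = 8) in CR and -1.70 ± 0.32 (SD, n = 5) in controls. RefSeq lists 10 transcripts of rhesus IL6R, and the sources do not say which of them each probe set reads. Over the 13 animals, with each diet's mean removed, the 2 probe sets correlated with r = 0.567 (rho = 0.451, permutation p = 0.0324 for r and 0.121 for rho, and adjusted p = 0.129 and 0.194 over 8 pairs of probe sets of a gene). With the 2 animals farthest from the median left out r was 0.280, the diet means removed being still those of all 13 animals.

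IL6ST, the gene of gp130, had 1 probe set. Its signal ran from 32.7 to 207 with a median of 162 in CR animals, against 55.1, 99.2, 173, 187 and 274 in control animals. The groups overlapped, and CR replicate 8 lay far below the other 7 CR animals. The difference was -0.039 ± 0.47 (SE, log2). It was 0.25 without CR replicate 8 and -0.37 without control replicate 2, so its sign hung on single animals.

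LIFR, the receptor subunit for leukaemia inhibitory factor, also had 1 probe set. Its signal ran from 57.0 to 223 with a median of 177 in CR animals, against 69.8, 90.5, 113, 191 and 218 in control animals. Both diets held low and high animals, with CR replicate 2 lowest of all and CR replicate 8 highest. The difference was 0.27 ± 0.39 (SE, log2). It lay between 0.060 without control replicate 4 and 0.47 without control replicate 5. With the replicate number as a block it was -0.033. In that setting CR animals whose number no control animal had, CR replicate 8 among them, do not enter the difference.

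OSMR, the oncostatin M receptor subunit, had 3 probe sets. The brightest gave 1189 to 3317 with a median of 2020 in CR animals, against 1640, 1675, 1694, 2472 and 4086 in control animals. Control replicate 4 held the highest value and CR replicate 2 the next. The difference was -0.19 ± 0.25 (SE, log2), and 0.044 without control replicate 4. The middle probe set differed by -0.23 ± 0.25 and followed the brightest one across animals with r = 0.808 (rho = 0.874, permutation p = 0.00173 and 0.00013, adjusted p = 0.0138 and 0.00104 over the 8 pairs, n = 13). With the 2 farthest animals left out r was 0.694. The dimmest probe set lay at the 10.1th percentile of mean signal, differed by 0.79 ± 0.83 (0.28 without control replicate 4 and 1.26 without control replicate 1), and did not follow the others (r = -0.178 and -0.101, with permutation p = 0.567 and 0.740, and rho = -0.269 and -0.165). LIFR and OSMR are direct neighbours in the RefSeq annotation of the T2T-MMU8v2.0 assembly.

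**Figure D1:**
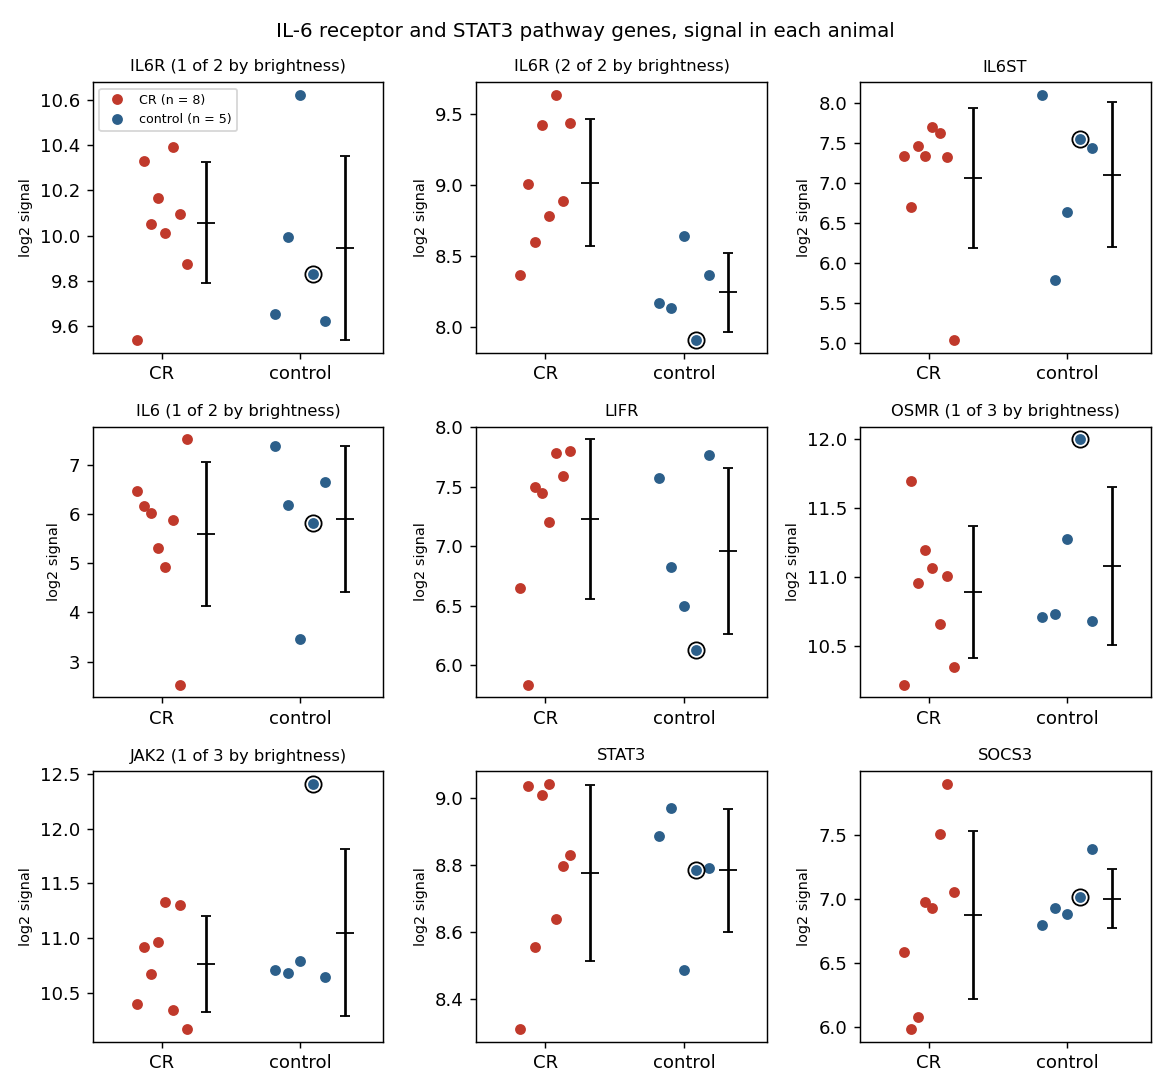
Log2 signal (vertical axes) of the brightest probe set of each gene, and of both IL6R probe sets, in 8 CR and 5 control animals. Points are animals, black bars are the mean with the SD, and a ring marks control replicate 4, which is highest for OSMR and JAK2 and lowest for the dimmer IL6R probe set.

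IL6 itself was dim. Its 2 probe sets lay at the 32.8th and 23.6th percentiles of mean signal, below the median of the array. The brighter one ran from 5.76 to 184 with a median of 61.7 in CR animals, against 10.9, 56.6, 72.9, 101 and 166 in control animals. The spread over all animals was 31.8-fold, and the difference of -0.30 ± 0.76 (SE, log2) was smaller than its own error. It was -0.91 without control replicate 3, and its sign turned without CR replicate 7 (0.14) or control replicate 1 (0.069). The other probe set ran from 7.83 to 91.7 with a median of 43.2 in CR animals, against 10.7, 11.5, 61.1, 89.9 and 250 in control animals. Its difference of -0.44 ± 0.81 became 0.18 without control replicate 4, the animal with the highest value, and -0.95 without control replicate 3. The 2 probe sets did not follow each other (r = 0.142, rho = -0.0989, permutation p = 0.663 and 0.757, n = 13). MAS5 detection calls are not analysed here, so whether IL6 was above background was not settled.

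JAK2, 1 of the kinases bound to these receptors, had 3 probe sets. In the brightest the signal ran from 1150 to 2577 with a median of 1783 in CR animals, against 1599, 1644, 1678, 1776 and 5440 in control animals. Control replicate 4 lay far above the other 4 controls, which were close together. The difference was -0.29 ± 0.28 (SE, log2), and 0.054 without control replicate 4. The other probe sets differed by -0.080 ± 0.22 and 0.0078 ± 0.22, and without control replicate 4 the first of these was 0.084. The 3 probe sets correlated with each other at r from 0.466 to 0.600 (permutation p from 0.0520 to 0.130, rho from 0.517 to 0.555), and at 0.263 to 0.317 without control replicate 4.

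STAT3, the transcription factor on which the pathway converges, was the steadiest of the 8 genes. Its signal ran from 317 to 527 with a median of 450 in CR animals, against 359, 441, 443, 473 and 501 in control animals. The spread over all 13 animals was 1.66-fold, the smallest among the 14 probe sets, and the groups lay on top of each other. The difference was -0.0072 ± 0.19 (SE, log2), with a 95% interval from -0.40 to 0.38 before adjustment, and lay between -0.082 and 0.059 with 1 animal left out.

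SOCS3, the feedback inhibitor, ran from 63.1 to 239 with a median of 124 in CR animals, against 111, 118, 122, 130 and 168 in control animals. CR animals lay on both sides of the controls, with 3 below the lowest control and 2 above the highest. The SD of log2 signal was 0.66 in CR (n = 8) and 0.23 in controls (n = 5), and the difference in spread was not tested. The difference in means was -0.13 ± 0.36 (SE, log2), and 0.0011 without CR replicate 2.

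Across the 8 genes, each by its brightest probe set, 2 were higher and 6 lower in CR, with a median difference of -0.083 on the log2 scale, where the median over all probe sets was 0.0019. The median of the 8 turned to 0.049 when control replicate 4 was left out and to 0.029 when control replicate 1 was. Over all 14 probe sets the median size of a difference was 0.21, beside 0.26 over the whole table.

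**Figure D2:**
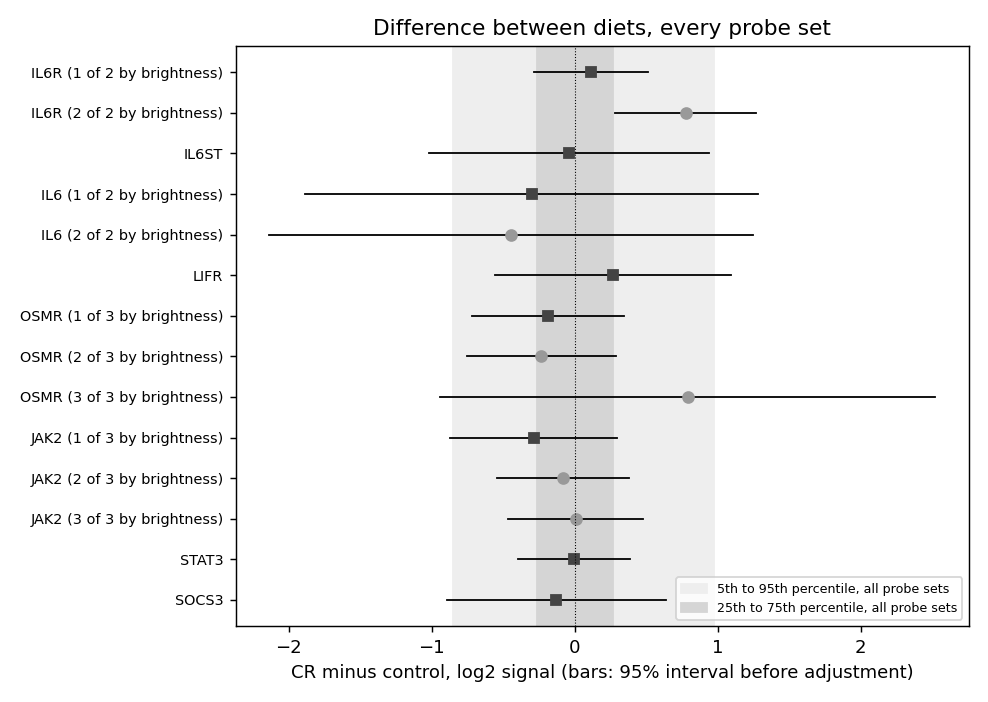
CR minus control difference in log2 signal (horizontal axis) for the 14 probe sets, squares being the brightest of a gene and circles the others, with 95% intervals before adjustment. Grey bands hold the middle of all 52766 differences. The dimmer IL6R probe set, at 0.78, is the only one whose interval leaves out 0. This difference was known when the genes were selected, so its interval is a description and not a test.

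The rest of the pathway was looked at through 5 lists of genes that are not among the 9. Of 68 genes listed 55 were measured, with 114 probe sets, and 0 passed limma's test in either direction after adjustment. At an unadjusted p under 0.05 limma called 1 of the 114 probe sets, where 3.38% of all probe sets were called. The exact rank-sum test called 0 after adjustment. By their brightest probe sets 23 genes were higher and 32 lower in CR.

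Of the 7 IL-6 family ligands measured, 6 were higher and 1 lower in CR, with a median difference of 0.20 on the log2 scale. Ciliary neurotrophic factor, encoded by CNTF, differed by 0.32 ± 0.38 (SE) but by -0.48 in its other probe set. LIF differed by 0.34 ± 0.45, CLCF1, a ligand of the CNTF receptor, by 0.32 ± 0.42, and the cardiotrophin gene CTF1 by 0.17 ± 0.22. None of these exceeded its own error. OSM, the ligand of OSMR, differed by -0.19 ± 0.53 (0.051 in its other probe set).

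Of the 7 further receptor and shedding genes, 2 were higher and 5 lower in CR, with a median of -0.097. CNTFR, the binding subunit for CNTF, had 18.6 to 304 with a median of 142 in CR animals and 27.6 to 182 with a median of 51.6 in control animals. The groups overlapped widely, and the difference was 0.85 ± 0.64 (SE, log2; limma's adjusted p = 0.999). RHBDF2, a partner of the shedding protease ADAM17, differed by -0.31 ± 0.26 (0.012 in its other probe set). ADAM10, a protease that can release IL6R from the cell surface, differed by -0.13 ± 0.26, and IL27RA by -0.099 ± 0.24.

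Among 11 JAK, STAT and adaptor genes 4 were higher and 7 lower, with a median of -0.080. STAT6, which serves interleukin-4, differed by -0.29 ± 0.26 (SE, log2; other probe sets from -0.11 to 0.19). TYK2, another JAK kinase, differed by 0.40 ± 0.52, with its other probe set at -1.09. The adaptor SHC1 differed by -0.13 ± 0.21 and JAK3 by 0.45 ± 0.70, with other probe sets of the opposite sign (0.30 and -0.13). Among 13 negative regulators 5 were higher and 8 lower, with a median of -0.067. SH2B3, an adaptor that restrains JAK2, differed by -0.29 ± 0.19, PIAS3, which inhibits STAT3, by -0.22 ± 0.23, PIAS2 by 0.33 ± 0.22 (other probe sets from -0.67 to 0.44) and the phosphatase PTPN6 by 0.19 ± 0.27. SOCS1, the relative of SOCS3, differed by -0.067 ± 0.29, with other probe sets from -0.19 to 0.51. PTPRC, a gene of blood leukocytes, differed by -0.26 ± 0.48, with other probe sets from -0.84 to 0.90, so the probe sets of both genes differed in sign.

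Of 17 genes known as STAT3 targets 6 were higher and 11 lower in CR, with a median of -0.041. At an unadjusted p under 0.05 limma called 3.38% of all probe sets. ICAM1, an adhesion molecule of vessels and leukocytes, was the single pathway gene at that level. Its signal was 6.33 to 75.6 with a median of 25.5 in CR animals, against 26.8 to 180 with a median of 108 in control animals, at the 26.7th percentile of mean signal. The difference was -1.45 ± 0.66 (SE, log2; limma's adjusted p = 0.999), and 0 of 8 CR animals exceeded the controls' mean. By their brightest probe sets 9 of 9 endothelial markers measured had a lower mean in CR, none of them called, and other probe sets of CDH5 (0.55), TEK (0.26) and VWF (0.14) were higher. Their summed signal was 4882 to 11958 with a median of 7493 in CR animals and 7353 to 19822 with a median of 7522 in control animals, the top being control replicate 4. Their part in the ICAM1 difference was not tested. FOS, an immediate-early gene, differed by 0.82 ± 0.61, and BCL2L1, an inhibitor of apoptosis, by -0.44 ± 0.38 (other probe sets from -0.031 to 0.43). SERPINA3, a protease inhibitor of the acute phase, differed by 0.13 ± 0.15, while its 4 other probe sets were all lower in CR (-0.40 to -0.28). JUNB, a target that responds early to IL-6, differed by -0.019 ± 0.28.

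How the 8 genes vary between animals of the same diet was not used to choose them and was tested. Each gene's brightest probe set was centred on its diet's mean, and the 28 pairs were correlated over the 13 animals with a two-sided permutation test that shuffled animals within their diet. After adjustment over the 28 pairs 0 passed, with the lowest adjusted p at 0.123 for Pearson's r and 0.0854 for Spearman's rho. Before adjustment 3 pairs had p under 0.05 for r and 6 for rho.

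The closest pair was OSMR and JAK2, which were both high in control replicate 4 and both low in CR replicates 1 and 8. Their r was 0.803 and rho 0.791 (permutation p = 0.00439 and 0.00305, adjusted p = 0.123 and 0.0854). Within the 8 CR animals alone r was 0.685 (exact permutation p = 0.0603). With CR replicate 2 and control replicate 4 left out r was 0.751. Without CR replicate 2 alone the pair passed the adjustment (r = 0.884, adjusted p = 0.0364 in the permutation test).

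LIFR and OSMR, neighbours in the genome whose products share gp130, ran in opposite directions, with r = -0.626 and rho = -0.566 (permutation p = 0.0319 and 0.0631, adjusted p = 0.446 and 0.252). With CR replicate 2 and control replicate 4 left out r was -0.115. Without CR replicate 1, by contrast, r was -0.850 and the pair passed (adjusted p = 0.0028 in the permutation test). Before adjustment that p was the smallest that the 10000 permutations of this setting could give. IL6 and JAK2 passed without control replicate 4 (r = -0.684, adjusted p = 0.0336 in the permutation test). Over all 13 animals r was -0.430 (permutation p = 0.159, rho = -0.637, permutation p = 0.0287, adjusted p = 0.634 and 0.185). The IL6 probe set used was dim, at the 32.8th percentile of mean signal, and did not follow the other one (r = 0.142). That other IL6 probe set was not set against JAK2 on its own.

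No relation was detected between STAT3 and its target SOCS3, with r = 0.0487 and rho = 0.0714 (permutation p = 0.895 and 0.835, adjusted p = 0.964 and 0.971). IL6R and its partner IL6ST gave r = -0.159 and rho = -0.242 (permutation p = 0.606 and 0.459). SOCS3 lay nearest to LIFR among the 7 others, with r = 0.563 and rho = 0.560 (permutation p = 0.0478 and 0.0376, adjusted p = 0.446 and 0.185), and 0.401 for r without CR replicate 2 and control replicate 4.

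**Figure D3:**
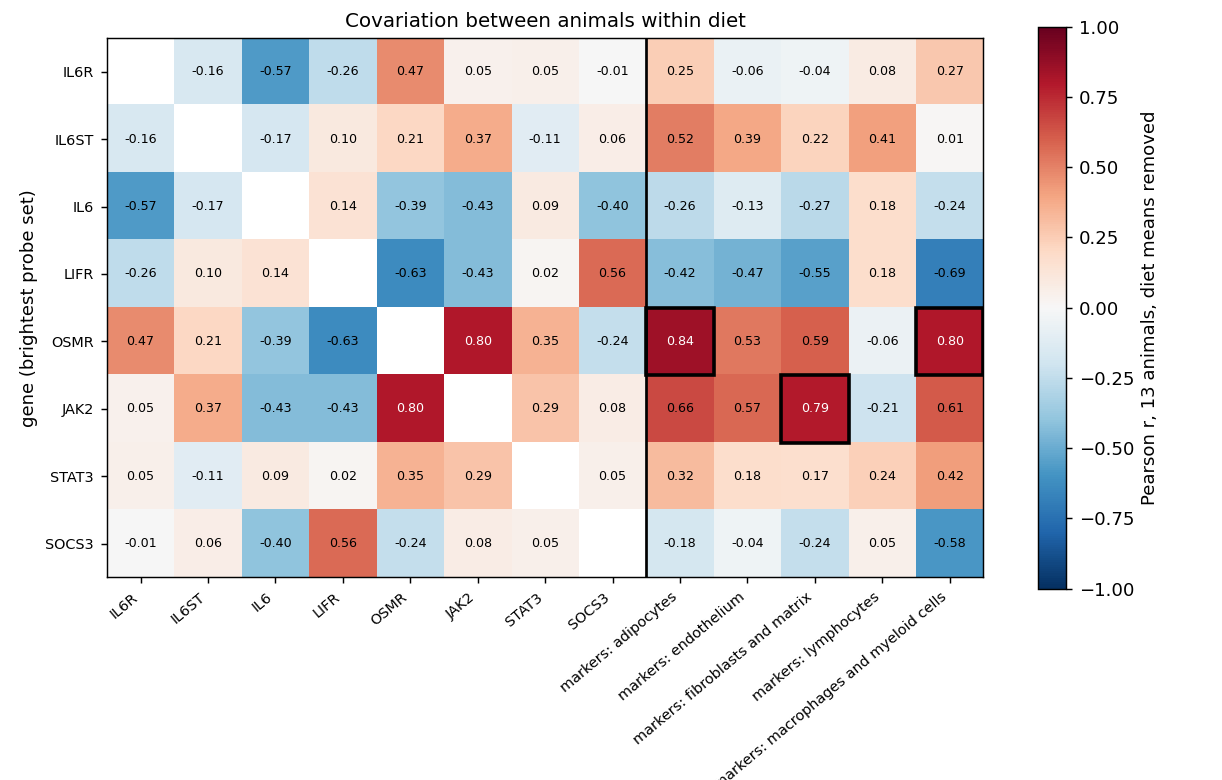
Pearson's r over 13 animals with diet means removed, for each pair of the 8 genes (left block) and for each gene against the mean log2 signal of markers of 5 other cell types (right block). Framed cells passed adjustment within their block; they are OSMR with adipocyte and with macrophage markers and JAK2 with matrix markers.

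The same test was run for the 8 genes against markers of 5 cell types other than muscle fibre, 40 relations in all, of which 3 passed adjustment. In whole tissue more cells of a type and more RNA per cell cannot be told apart. OSMR followed the markers of macrophages and myeloid cells, with r = 0.803 and rho = 0.830 (permutation p = 0.00125 and 0.00116, adjusted p = 0.0167 and 0.0368). Of 12 such markers 10 were measured, MRC1, CSF1R and the C1Q genes among them and none at the floor, with summed signals of 3886 to 13402 in CR animals and 4747 to 9814 in control animals. CR replicate 2 and control replicate 4 were high in both, and without them r was 0.675. Within the 8 CR animals r was 0.821 (exact permutation p = 0.0143).

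OSMR also followed the adipocyte markers, with r = 0.844 and rho = 0.720 (permutation p = 0.00093 and 0.00996, adjusted p = 0.0167 and 0.0996). Of 8 adipocyte markers 4 were measured, ADIPOQ, LEP, FABP4 and CIDEA, with summed signals of 3363 to 35013 in CR animals and 3502 to 28441 in control animals. Within the 8 CR animals r was 0.961 (exact permutation p = 0.000347), and without CR replicate 2 and control replicate 4 it was 0.688. The adipocyte and macrophage markers themselves correlated with r = 0.627 (rho = 0.555, permutation p = 0.0271 and 0.0646), and the OSMR relations with each were not tested apart. The part of either cell type in the OSMR signal was not tested.

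JAK2 followed the markers of fibroblasts and matrix, with r = 0.789 and rho = 0.725 (permutation p = 0.00077 and 0.00517, adjusted p = 0.0167 and 0.0689). Of 8 markers 6 were measured, with summed signals of 40665 to 99105 in CR animals and 35548 to 141637 in control animals. The highest sum and the highest JAK2 signal belonged to control replicate 4, and without that animal and CR replicate 5 r was 0.616. No adipocyte or matrix marker was at the floor on all arrays, and the part of matrix cells in the JAK2 signal was not tested.

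All 3 calls were lost, and no relation of the 40 passed, when CR replicate 2, CR replicate 8, control replicate 3 or control replicate 4 was left out. Across these 4 cases r was 0.725 to 0.808 for OSMR with macrophage markers, 0.785 to 0.853 for OSMR with adipocyte markers and 0.604 to 0.789 for JAK2 with matrix markers. The other OSMR and JAK2 probe sets, compared after the data were seen, gave weaker relations. The middle OSMR probe set gave r = 0.666 with macrophage markers and 0.702 with adipocyte markers (rho = 0.692 and 0.714, permutation p = 0.0188 and 0.0125, adjusted p = 0.0563 for both over 6 relations). The dimmest OSMR probe set gave 0.257 and -0.0101, and the other JAK2 probe sets gave 0.551 and 0.143 with matrix markers.

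**Figure D4:**
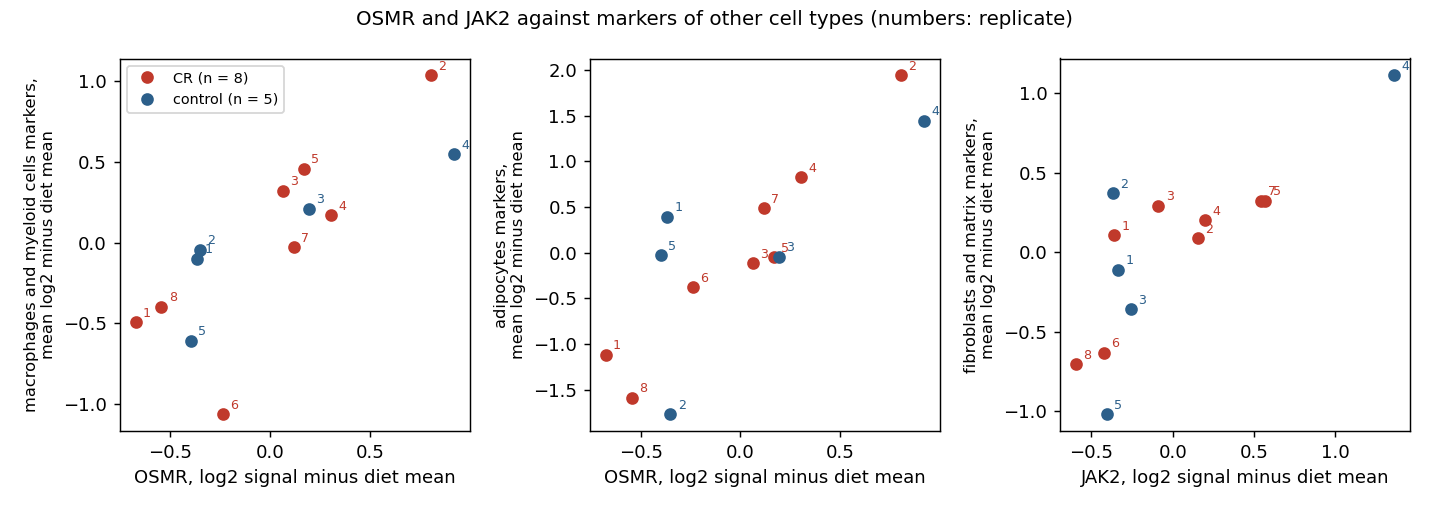
OSMR or JAK2 (horizontal axes, log2 signal minus the diet's mean) against the mean log2 signal of marker genes minus the diet's mean (vertical axes) in 8 CR and 5 control animals, numbered by replicate. CR replicate 2 and control replicate 4 sit at the upper right in the plots of OSMR, and control replicate 4 alone at the upper right in that of JAK2.

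Over all 13 animals no other relation passed adjustment by Pearson's r. By Spearman's rho the calls were OSMR with macrophage markers and JAK2 with macrophage markers (rho = 0.819, permutation p = 0.00184, adjusted p = 0.0368), the second of which had r = 0.614 (permutation p = 0.0178, adjusted p = 0.142). LIFR ran against the macrophage markers with r = -0.686 and rho = -0.659 (permutation p = 0.0127 and 0.0193, adjusted p = 0.127 and 0.129), and r was -0.370 without CR replicate 2 and control replicate 4. Without CR replicate 1 this relation passed (r = -0.822, adjusted p = 0.035 in the permutation test). LIFR with endothelial markers passed only with RNA quality covariates among the settings run (r = -0.742, adjusted p = 0.041 in the permutation test), and had r = -0.469 without them (rho = -0.275, permutation p = 0.121 and 0.376). SOCS3 ran against the macrophage markers with r = -0.581 and rho = -0.467 (permutation p = 0.0719 and 0.133). STAT3 gave r from 0.167 to 0.417 with the 5 marker lists. IL6R, by its brighter probe set, gave 0.267 with macrophage markers (rho = 0.324, permutation p = 0.356 and 0.294).

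Genes with the pattern most like IL6R, STAT3 and SOCS3 were ranked by Pearson's r over the 13 arrays with diet means removed, among 15770 probe sets with 1 symbol in the brighter part of the array. These values describe a ranking and carry no test. For the dimmer IL6R probe set the highest was MRPS26, a mitochondrial ribosomal protein gene (r = 0.939, other probe set 0.671). The ubiquitin ligase genes UBR1 (0.867) and NEDD4 (0.859) came next. They were followed by UFD1 (0.854, other probe set 0.427) and the transcription factor gene SOX6 (0.852, others from 0.042 to 0.770). For the brighter IL6R probe set the highest were UBR1 (0.849), IQCG (0.846, other probe set 0.768), WIF1 (0.838), NPY2R (0.823) and PCBD2 (0.806, but -0.108 in its other probe set). UBR1, which recognises N-terminal degradation signals, was thus near the top for both, with other-probe-set values of 0.704 and 0.395.

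For STAT3 the nearest were YJU2 (r = 0.836), MAMU-I (0.833, other probe sets from 0.197 to 0.413), NMT1 (0.830, others from -0.085 to 0.083), CCDC117 (0.827) and CEP19 (0.823, other probe set -0.129). For SOCS3 they were ZFAND3 (0.919, other probe set 0.565), BPIFA1 (0.914), ENTPD6 (0.909), FCSK (0.883, others from -0.261 to 0.349) and the transcription factor gene YY1 (0.881, others from -0.581 to 0.516). Several of these genes had other probe sets that did not share the pattern, so the rank belongs to the probe set and not to the gene.

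**Figure D5:**
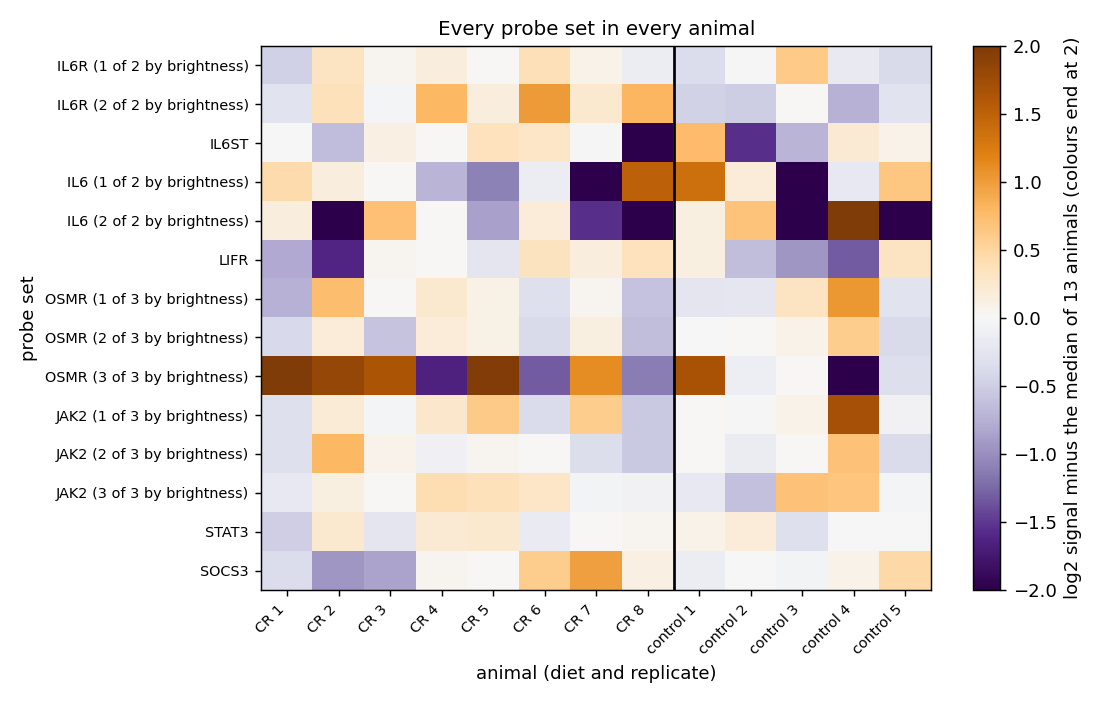
Log2 signal of each of the 14 probe sets (rows) in each animal (columns, CR then control) minus the median of the 13 animals, with colours ending at 2. The IL6 probe sets and the dimmest OSMR probe set vary most between animals, and STAT3 least.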

How the data were processed

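Per the labels' protocols, RNA came from a Trizol extraction and was turned into biotinylated cRNA for one-colour Affymetrix arrays. Each deposited value is the intensity of 1 probe set on 1 array, on a linear scale. The submitters' processing notes name MAS5, with no version. The members and lists were chosen with earlier results of these data known. Of 52865 rows 99 were AFFX controls and left out. A floor of 1 (137 values) preceded the log2 transform, with no filter on dim probe sets. The platform annotation gave 24956 probe sets 1 symbol, 361 several and 27449 none. Dim probe sets vary more on this scale. The median half-width of a 95% interval was 1.01.

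The diet comparison was limma's two-sided test (version 3.58.1, R 4.3.3; lmFit, eBayes with a trend), called at a Benjamini-Hochberg adjusted p under 0.05. Correlations used 100000 permutations within diet, exact ones within CR (Python 3.11.15). Both were checked on simulated data. The named genes were all members, up to 4 per list by lowest p, and 5 by likeness of pattern; OSM, SOCS1, PTPRC and JUNB were added after values were seen. Alternatives covered normalization, offset, dim filter, trend, array weights, RNA quality ratios, rank tests, the replicate block and each animal left out. The labels call replicates biological; no batch is given.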

Additional observations from a re-analysis of the deposited data

Results flagged for a closer look

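Within each diet, each of the 14 probe sets was searched for an animal lying apart. This gave 3 of 28 groups, where chance gives about 1 in 20, or 1.40. IL6ST had a log2 signal of 5.03 in CR replicate 8, below the 6.69 to 7.69 of the other CR animals. The brightest JAK2 probe set had a log2 signal of 12.41 in control replicate 4, above the 10.64 to 10.79 of the other controls. The middle JAK2 probe set had 10.30 in CR replicate 2, above the 8.97 to 9.58 of the other CR animals.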

How the results depend on the processing

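No probe set passed between the diets under the 9 alternatives other than leaving an animal out. Without control replicate 1, 1 of 52766 passed (range 0 to 1 over the 13 animals left out in turn). Pathway genes called stayed at 0 in every alternative run. The sign of the diet difference turned in 10 of the 14 probe sets of the 8 genes, in 9 of them with an animal left out. It was kept in 4, both IL6R probe sets and the middle and dimmest OSMR ones. The dimmer IL6R probe set ranged from 0.59 with the replicate block to 0.83 with RNA quality covariates. The replicate block compares only animals whose number occurs in both diets, so the other CR animals do not enter its differences. Same-numbered animals of the diets did not deviate together (r from -0.203 to 0.020), so the numbers were not taken as pairs, and the replicate block left the count of probe sets called at 0. Pairs of the 8 genes past adjustment ranged from 0 to 1 with an animal left out. Relations with cell markers past adjustment ranged from 0 to 4 with an animal left out, against 3 with all, and numbered 4 with RNA quality covariates, the same 3 and LIFR with endothelial markers. With Spearman's rho there were 2, of which only OSMR with macrophage markers was among the 3, the other being JAK2 with macrophage markers. OSMR with adipocyte markers turned to -0.0101 in the dimmest OSMR probe set. The cause of these shifts was not tested. In the brighter-part filter the IL6 probe sets and the dimmest OSMR probe set drop out. Dim signals and the number of animals limit what could be seen.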
